A study of Mus musculus with 9 samples.

Results

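*Foxq1* and 9 further forkhead genes of the mouse kidney (*Foxc1*, *Foxc2*, *Foxf1*, *Foxf2*, *Foxi1*, *Foxj1*, *Foxl1*, *Foxp1* and *Foxp2*) were followed across 3 genotypes. They were found by gene name and are 10 of the 24138 loci in the deposited table. *Foxq1* was chosen by its FPKM in the homozygous and heterozygous libraries, so that its difference between them is given as a description, with no test. The other 9 are relatives with known roles in the kidney or in tissues around it. In bulk RNA from a whole organ, fewer cells of a type and less RNA per cell cannot be told apart.

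RNA-seq was performed on whole kidneys at embryonic day E15.5, with 3 libraries of each genotype, from mice on a C57Bl6/J background and without regard to sex. The kidneys came from 3 separate crosses of Ntn1fl/fl with Foxd1GC/+;Ntn1fl/+ animals. Foxd1GC/+;Ntn1fl/fl kidneys (homozygous, MUT) carry a GFP-Cre knock-in at *Foxd1* and floxed copies of *Ntn1* only, and Foxd1GC/+;Ntn1fl/+ kidneys (heterozygous, HET) carry the same knock-in with an intact copy of *Ntn1*. Ntn1fl/fl kidneys without Cre served as wild type (WT). The Cre is driven from the *Foxd1* locus and acts in stromal progenitors and their descendants, and it replaces a working copy of *Foxd1*, itself a forkhead gene, in HET and MUT alike. The comparison of MUT with HET asks which genes move with the loss of stromal *Ntn1*, a secreted guidance cue, where both groups share the *Foxd1* insertion. Values are FPKM, fragments per kilobase of transcript scaled to the size of the library, and may be compared between genes because they are per length, as far as the transcript models hold. The number of reads behind them is unknown. A relative depth, with WT-1 set to 1, was taken from the loci of lowest FPKM. It was the most frequent ratio of their FPKM in WT-1 to that in each library. This depth was 0.574 in WT-2 and 0.616 in MUT-3, the shallowest libraries, and 1.27 in MUT-1, the deepest.

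Forkhead proteins bind DNA through a shared winged-helix domain, and many are specific to a cell type. In the kidney Foxd1 marks stromal progenitors, Foxc1 and Foxc2 act in early metanephric mesenchyme and later in podocytes and vessels, and Foxi1 drives the acid-base transporting intercalated cells of the collecting duct. Foxf1, Foxf2 and Foxl1 are known from the mesenchyme of gut and other organs, where they respond to hedgehog signals, and Foxj1 drives motile cilia. Foxq1 is known from hair follicles and the stomach lining, and from carcinoma cells in which it is tied to Wnt signalling and to epithelial-mesenchymal transition.

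The libraries were first checked against their labels. *Ntn1* was at 26.1, 28.9 and 17.8 FPKM in WT-1 to WT-3, at 12.3, 12.02 and 16.5 in the HET libraries in the same order, and at 10.8, 16.5 and 11.04 in MUT. Every library with the Cre lay below every WT library, and HET and MUT overlapped. *Six2*, which marks nephron progenitors, lay between 57.8 and 107 FPKM in all 9 libraries. HET-2 stood apart. The summed level of 10 liver markers was 838 FPKM there and between 33.8 and 59.6 in the other 8 libraries, with *Alb* at 244 FPKM against at most 4.77. *Afp*, the most abundant of the liver markers over all libraries, was at 217 FPKM in HET-2. HET-2 also held *Th* at 4.93 and *Dbh* at 5.13 FPKM, genes of catecholamine synthesis that were at most 0.36 elsewhere. The main results that rest on HET are therefore also given without HET-2.

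The forkhead genes spanned over 3 orders of magnitude in level. *Foxc2* was the most abundant, with a mean of 48.2 FPKM over 9 libraries, and its lowest library (37.4) lay above the highest of any other member. *Foxc1* followed at 19.8 FPKM, *Foxq1* at 13.1, *Foxl1* at 9.36 and *Foxp1* at 8.98. The ranges of these 4 genes over all libraries overlapped from each to the next. Within libraries, *Foxc1* was above *Foxq1* and *Foxq1* above *Foxl1* in 9 of 9, whereas *Foxl1* was above *Foxp1* in 4 of 9. *Foxi1* (4.09), *Foxp2* (2.26) and *Foxj1* (2.14) formed a lower group, again with overlapping ranges, in which *Foxi1* was above *Foxp2* in 9 of 9 libraries and *Foxp2* above *Foxj1* in 5 of 9. *Foxf1* was at 0.562 FPKM, and *Foxf2* was close to the limit of the table at 0.0219. The gaps between *Foxc2* and *Foxc1*, *Foxp1* and *Foxi1*, *Foxj1* and *Foxf1*, and *Foxf1* and *Foxf2* were the only ones without overlap of the ranges. The plot of FPKM by library shows all 10 genes.

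**Figure D1:**
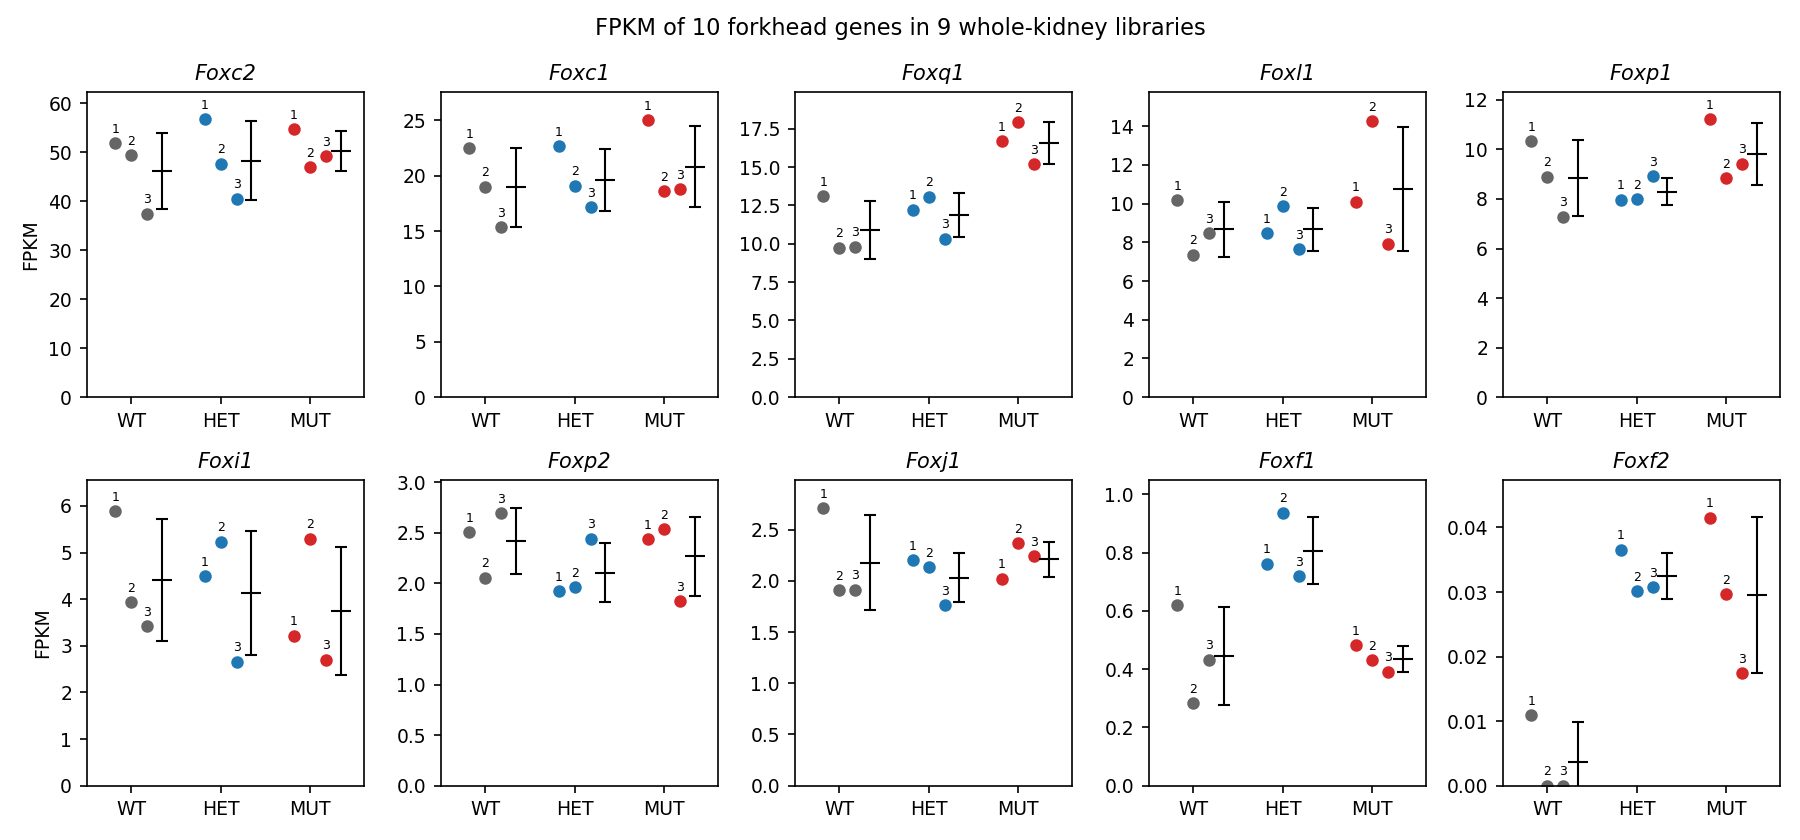
FPKM (vertical axes, each from 0) of the 10 forkhead genes in WT, HET and MUT kidneys; points are libraries with their number, and bars are mean±s.d. (n=3), drawn no lower than 0. The 3 MUT libraries of *Foxq1* sit between 15.2 and 17.9 FPKM, above the other 6, and the 3 HET libraries of *Foxf1* sit between 0.719 and 0.936, above the other 6.

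*Foxq1* lies on chromosome 13 from 31558170 to 31560974 on the plus strand (mm10) and consists of 1 exon. The locus in the table begins 2036 bases downstream of the gene start in GENCODE M21, and its end differs from the annotated end by less than 10 bases. The model length behind its FPKM is not given in the sources used here, so that its level beside other genes is less certain than its differences between libraries. *Foxq1* was at 13.1, 9.75 and 9.82 FPKM in WT-1 to WT-3. In HET it was at 12.2, 13.1 and 10.3 FPKM in the same order, and in MUT at 16.7, 17.9 and 15.2 FPKM. All 3 MUT libraries were above all 6 others, while WT and HET overlapped. The mean in MUT was 16.6±1.38 FPKM (s.d., n=3), 1.40 times that in HET (11.9±1.41) and 1.52 times that in WT (10.9±1.91). On the log2(FPKM+1) scale the differences were 0.45 (standard error, s.e., 0.12) and 0.57 (s.e. 0.12). Without HET-2 the ratio of MUT to HET was 1.47.

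These values chose *Foxq1* and support nothing by themselves. Among 10164 loci with at least 5 FPKM in any genotype, 38 (0.374%) had the 3 MUT libraries above the 6 others. In MUT against HET, 118 of 10081 genes had a larger log2 fold change than *Foxq1*, and in MUT against WT 18 of 10096 did. Between HET and WT the log2 fold change of *Foxq1* was 0.12 (s.e. 0.12), and it was -0.012 when the libraries numbered 2 were left out. As the HET values entered the choice, this too is a description.

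Of the 10 genes, 5 reached a mean of 5 FPKM in a genotype and entered the tests across all genes (*Foxq1*, *Foxc1*, *Foxc2*, *Foxl1* and *Foxp1*), and 5 did not. Of these *Foxq1* is described without a test, and none of the other 4 had an adjusted p (Benjamini and Hochberg) under 0.05 in limma in any comparison. The same held for all genes tested, of which 0% were called between MUT and HET, 0% between MUT and WT and 0% between HET and WT. At an unadjusted p under 0.05, 494 genes (4.90%) passed between MUT and HET, 201 (1.99%) between MUT and WT and 233 (2.31%) between HET and WT. Of the 4 members, 0 were among them.

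*Foxc1* and *Foxc2*, which share roles in mesoderm, vessels and podocytes, were the most abundant members and differed little between genotypes. *Foxc1* was at 22.5, 19.0 and 15.3 FPKM in WT, at 22.7, 19.1 and 17.2 in HET and at 25.0, 18.6 and 18.8 in MUT. The groups overlapped, and the libraries numbered 1 were the highest in each genotype. In MUT against HET the log2 fold change of *Foxc1* was 0.07 (s.e. 0.12, adjusted p = 0.952, limma). It ran from 0.043 to 0.13 when each replicate number in turn was left out. *Foxc2* was at 51.8, 49.4 and 37.4 FPKM in WT, at 56.7, 47.6 and 40.5 in HET and at 54.7, 46.9 and 49.1 in MUT. Again the groups overlapped, and the spread within WT and within HET was larger than any difference between the means. In MUT against HET the log2 fold change of *Foxc2* was 0.07 (s.e. 0.14, adjusted p = 0.960, limma), and turned to -0.014 after a correction for GC content and to -0.036 without the libraries numbered 3.

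*Foxl1*, a mesenchymal gene downstream of hedgehog in the gut, was at 10.2, 7.35 and 8.47 FPKM in WT and at 8.47, 9.87 and 7.66 in HET. In MUT it was at 10.1, 14.2 and 7.94 FPKM. MUT-2 was its highest library by a wide margin, whereas MUT-3 lay within the range of WT and HET. The log2 fold change of *Foxl1* was 0.25 (s.e. 0.14, adjusted p = 0.933, limma) between MUT and HET and 0.26 (s.e. 0.19, adjusted p = 0.995, limma) between MUT and WT. Without the libraries numbered 2 these were 0.14 and -0.047. *Foxp1*, a repressor expressed in many tissues, was at 10.3, 8.89 and 7.28 FPKM in WT, at 7.96, 7.997 and 8.92 in HET and at 11.2, 8.83 and 9.42 in MUT. MUT-2 lay below HET-3, so that MUT and HET overlapped. In MUT against HET the log2 fold change of *Foxp1* was 0.21 (s.e. 0.14, adjusted p = 0.933, limma), and it was 0.099 without the libraries numbered 1. Without HET-2 the log2 fold changes in MUT against HET were 0.06 for *Foxc1*, 0.06 for *Foxc2*, 0.34 for *Foxl1* and 0.19 for *Foxp1*.

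The 4 tested members beside *Foxq1* were higher in MUT than in HET (*Foxc2* not so after the GC correction or without the libraries numbered 3), but the libraries of all 4 overlapped. The share of all genes tested whose MUT libraries lay above every HET library was 5.19%, and below it 4.5%. Against WT the shares were 1.32% and 1.34%, and 0 of these 4 members were without overlap. Between HET and WT the shares were 2.15% higher and 1.06% lower in HET, and 0 of the 4 were without overlap. The comparisons share libraries and are given side by side only.

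The remaining forkhead genes were read beside the members. The table held 34 further forkhead loci, of which 13 were tested. Between MUT and HET all 13 were higher in MUT, with a median log2 fold change of 0.14, beside a median of -0.02 over all genes, 45.9% of which were higher. The median of the other forkhead genes was 0.23 without the libraries numbered 3, and 0.016 over 31 genes with no FPKM minimum. With the members other than *Foxq1* added, 17 of 17 tested forkhead genes were higher in MUT, against 13 of 17 without the libraries numbered 1 and 16 of 17 without those numbered 3, without HET-2 or after the GC correction. None was past the adjusted threshold (limma). Of those not chosen by these values *Foxo3* and *Foxp4* passed an unadjusted p of 0.05, beside 4.90% of all genes tested.

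*Foxo3*, a stress-responsive factor, was at 13.5, 8.67 and 7.65 FPKM in WT, at 7.15, 7.34 and 10.2 in HET and at 15.2, 12.9 and 8.84 in MUT. Its log2 fold change was 0.52 (s.e. 0.19, adjusted p = 0.933, limma) in MUT against HET, although MUT-3 lay below HET-3, and 0.29 (s.e. 0.11, adjusted p = 0.995, limma) in MUT against WT, which overlapped. In MUT against HET *Foxn3* had the largest log2 fold change of the 18 tested forkhead genes, at 0.55 (s.e. 0.26, adjusted p = 0.933, limma). It was at 3.44, 3.71 and 7.64 FPKM in HET and at 9.54, 7.87 and 5.10 in MUT, with WT between 5.27 and 9.75. HET-1 and HET-2 were the low libraries for both genes, and HET-3 lay with MUT. Without HET-2 the log2 fold changes were 0.45 for *Foxo3*, 0.42 for *Foxn3* and 0.52 for *Foxq1*, so that *Foxn3* was no longer the largest. *Foxk1* and *Foxo4*, both widely expressed, had MUT libraries above every HET library with log2 fold changes of 0.26 and 0.12. With *Foxd1* this held for 3 of the 13 tested forkhead genes beside the members, where it held for 5.19% of all genes tested.

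Between MUT and WT, 12 of the 13 forkhead genes beside the members were higher in MUT, with a median log2 fold change of 0.06, beside -0.0035 over all genes, 48.7% of which were higher. With the members other than *Foxq1*, 16 of 17 were higher. The count was 15 of 17 after the GC correction and without the libraries numbered 1 or 3, and 13 of 17 without those numbered 2. Between HET and WT, 6 were higher and 11 lower, and without the libraries numbered 1 the count was 13 higher and 4 lower, so that this direction rested on those libraries. The exception in the former comparison was *Foxd1*, of which HET and MUT carry a disrupted copy. *Foxd1* was at 33.7, 33.4 and 25.8 FPKM in WT, at 21.7, 20.2 and 21.5 in HET and at 24.8, 22.5 and 24.3 in MUT. No library with the insertion reached any WT library, and every MUT library lay above every HET library. The log2 fold change of *Foxd1* was -0.52 (s.e. 0.12, adjusted p = 0.994, limma) between HET and WT and 0.17 (s.e. 0.12, adjusted p = 0.933, limma) between MUT and HET, and without HET-2 these were -0.49 and 0.14. *Foxd2*, a related gene of the kidney mesenchyme, had log2 fold changes of 0.14, 0.34 and 0.20 in MUT against HET, MUT against WT and HET against WT.

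**Figure D2:**
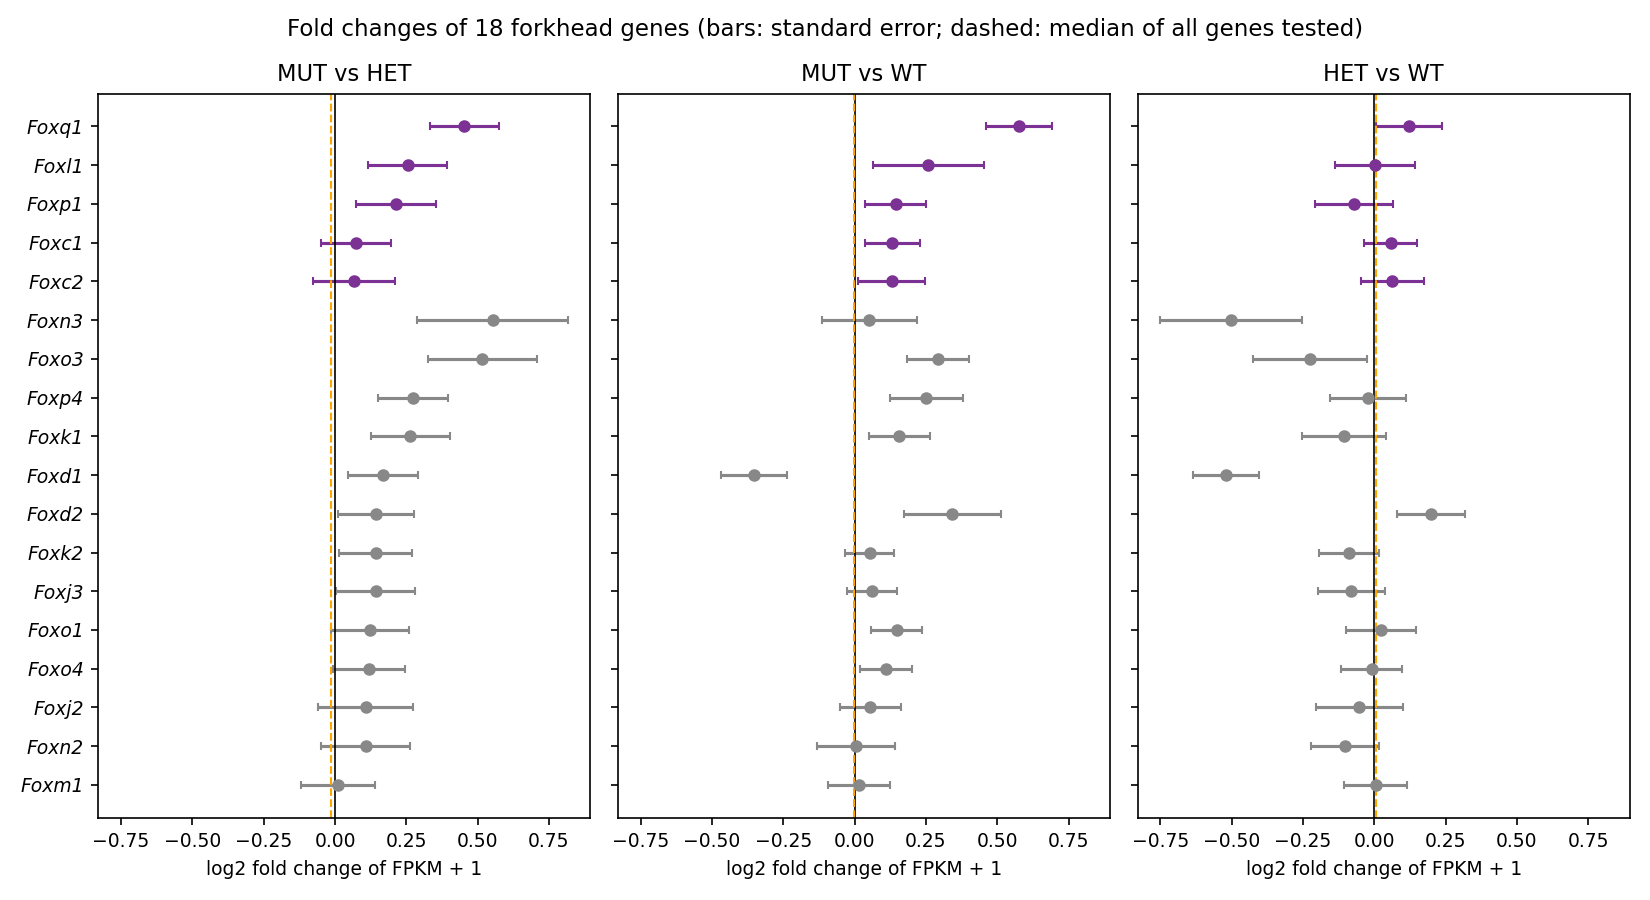
Log2 fold changes of FPKM + 1 (horizontal axes) of the 18 tested forkhead genes in 3 comparisons; points are estimates from limma, bars are standard errors, members are purple, other forkhead genes are grey, and the dashed line is the median of all genes tested. In MUT against HET all 18 points lie right of 0, with *Foxn3* at 0.55 and *Foxq1* at 0.45; *Foxd1* lies left of 0 in both comparisons with WT.

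*Foxa1*, an endodermal and urothelial factor below the 5 FPKM minimum, was chosen after its values were seen. It was at 2.95, 2.37 and 2.23 FPKM in WT, at 3.29, 3.22 and 2.94 in HET and at 4.21, 4.98 and 3.35 in MUT. As for *Foxq1*, all 3 MUT libraries were above the other 6, and the ratio of means was 1.33 against HET. Of the loci between 0.1 and 5 FPKM, 3.19% had MUT libraries above every HET library and 4.02% above every WT library. The share with MUT above both groups was not counted at these levels. With a minimum of 1 FPKM the log2 fold change of *Foxa1* was 0.31 (s.e. 0.14, adjusted p = 0.935, limma) against HET and 0.55 (s.e. 0.12, adjusted p = 0.991, limma) against WT. *Foxa3*, a liver forkhead factor also named after its values were seen, was at 0.670 FPKM in HET-2 and at most 0.110 in the other libraries. HET-2 is the library with the liver markers.

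6 of the 10 genes lie in 2 chromosomal clusters, a feature that the choice by name did not use. On chromosome 13, *Foxq1*, *Foxf2* and *Foxc1* start within 248 kb of each other, with *Foxf2* 67.6 kb from *Foxq1*. *Foxf2* (31625816 to 31631406) was at 0.0109 FPKM in WT-1 and listed at 0 in WT-2 and WT-3, and lay between 0.0301 and 0.0366 in HET and between 0.0174 and 0.0415 in MUT, levels too low to compare. *Gmds*, an enzyme of fucose synthesis 261 kb from *Foxq1*, was at 17.2, 18.04 and 17.5 FPKM on average in WT, HET and MUT, and its log2 fold change in MUT against HET was -0.05 (adjusted p = 0.971, limma).

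Upstream sequence in RefSeq (GRCm38.p6) was on hand for *Foxc1* and *Foxf2* of this cluster and for *Foxi1* and *Foxp1* elsewhere. *Foxc1* and *Foxf2* are shown because they are near each other, differ in level from 19.8 to 0.0219 FPKM and yet both start in CpG-rich sequence, and *Foxi1* is shown as a CpG-poor contrast. Each stretch is the 250 bases before the gene start on the gene's own strand, and capitals mark each CG dinucleotide. They cover chr13:31806396-31806645 (plus strand), chr13:31625566-31625815 (plus strand) and chr11:34208090-34208339 (minus strand).
Foxc1: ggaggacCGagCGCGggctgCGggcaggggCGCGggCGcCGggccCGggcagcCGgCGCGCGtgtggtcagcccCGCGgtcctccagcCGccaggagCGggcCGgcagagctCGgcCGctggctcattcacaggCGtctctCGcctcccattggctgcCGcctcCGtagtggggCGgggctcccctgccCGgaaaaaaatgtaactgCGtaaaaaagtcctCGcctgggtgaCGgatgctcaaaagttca
Foxf2: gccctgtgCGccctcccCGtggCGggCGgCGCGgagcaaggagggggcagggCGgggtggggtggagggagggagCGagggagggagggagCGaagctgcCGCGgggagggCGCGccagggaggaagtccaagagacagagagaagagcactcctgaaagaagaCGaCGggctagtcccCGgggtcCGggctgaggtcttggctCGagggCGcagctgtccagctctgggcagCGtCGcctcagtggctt
Foxi1: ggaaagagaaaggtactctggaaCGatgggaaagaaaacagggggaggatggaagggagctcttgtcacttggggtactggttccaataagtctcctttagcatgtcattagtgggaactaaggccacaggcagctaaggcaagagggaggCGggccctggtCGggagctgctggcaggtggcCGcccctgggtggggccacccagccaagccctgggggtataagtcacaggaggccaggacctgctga
*Foxc1* has 29 CG dinucleotides here and *Foxf2* 21, beside 4 in *Foxi1* and a median of 6 over the 32851 upstream stretches in the table. The letters TGTTTAC (forkhead), CTTTGAT (TCF/LEF), TGGGTGGTC (GLI) and TATAAA were searched on both strands and were absent from these 3 stretches and from the 3 of *Foxp1*. Over all stretches they were found in 3.17%, 3.21%, 0.225% and 12.4%. CCAAT, found in 33.8% of all stretches, was present 101 bases before the start of *Foxc1*, 167 before that of *Foxi1* and 36 before a start of *Foxp1*.

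On chromosome 8, *Foxf1*, *Foxc2* and *Foxl1* start within 43.3 kb of each other. *Mthfsd*, a gene between *Foxf1* and *Foxc2*, was at 15.0, 15.8 and 13.8 FPKM on average in WT, HET and MUT. Of 6 neighbours of this cluster that were tested, 3 were higher in MUT than in HET and 3 lower, and the libraries of 4 overlapped. Among the latter, the log2 fold change was -0.25 for *Cox4i1*, -0.18 for *Mthfsd*, -0.14 for *Map1lc3b* and 0.11 for *Fbxo31*. The locus of *Emc8* was at 17.7, 17.2 and 16.0 FPKM in WT, at 16.7, 17.04 and 17.2 in HET and at 18.05, 19.2 and 18.1 in MUT, and its MUT libraries, like those of *Foxq1*, lay above the other 6. *Zcchc14* had MUT libraries above every HET library. Their log2 fold changes in MUT against HET were 0.12 for *Emc8* and 0.32 for *Zcchc14* (adjusted p = 0.933 for both, limma). *Foxf1* (121084386 to 121088154, 2 exons) was at 0.620, 0.283 and 0.432 FPKM in WT, at 0.762, 0.936 and 0.719 in HET and at 0.483, 0.430 and 0.391 in MUT. All 3 HET libraries were above the other 6, and WT and MUT overlapped. The mean of *Foxf1* in HET was 1.81 times that in WT, and that in MUT was 0.539 times that in HET. Without HET-2, HET was still 1.66 times WT, and its lowest library (0.719) lay above the highest of the others (0.620). Of loci between 0.1 and 5 FPKM, 7.79% had MUT libraries below every HET library and 5.47% had HET libraries above every WT library. Among the 4 members in that range *Foxf1* alone did. With no FPKM minimum, the log2 fold change of *Foxf1* was -0.33 (s.e. 0.06, adjusted p = 0.916, limma) between MUT and HET and 0.33 (s.e. 0.10, adjusted p = 0.970, limma) between HET and WT. A fold change on this scale understates that of a gene with so low a level.

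*Fendrr*, a long non-coding RNA transcribed away from *Foxf1*, was also highest in HET, at still lower levels that in WT and MUT came down to those of *Foxf2*. Its locus (121054882 to 121083110, minus strand) ends 1275 bases before that of *Foxf1* begins. *Fendrr* was at 0.114, 0.0252 and 0.148 FPKM in WT, at 0.187, 0.303 and 0.286 in HET and at 0.0719, 0.0262 and 0.0457 in MUT. Here too the 3 HET libraries were above the other 6, also without HET-2, and WT and MUT overlapped. With no FPKM minimum the adjusted p of *Fendrr* from limma was 0.916 between MUT and HET and 0.970 between HET and WT. The 250 bases before its start, chr8:121083111-121083360 on the minus strand, lie in the gap between it and *Foxf1*, and are shown because they belong to a pair of neighbours that were both highest in HET. Capitals mark the forkhead letters, on the opposite strand.
Fendrr: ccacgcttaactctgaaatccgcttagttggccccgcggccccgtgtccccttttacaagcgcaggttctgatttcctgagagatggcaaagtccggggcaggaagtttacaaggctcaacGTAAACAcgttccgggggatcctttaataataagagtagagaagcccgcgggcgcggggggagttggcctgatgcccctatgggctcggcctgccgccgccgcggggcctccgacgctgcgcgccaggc
The match begins 129 bases before the start, and this is the one stretch of those printed that holds these letters.

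**Figure D3:**
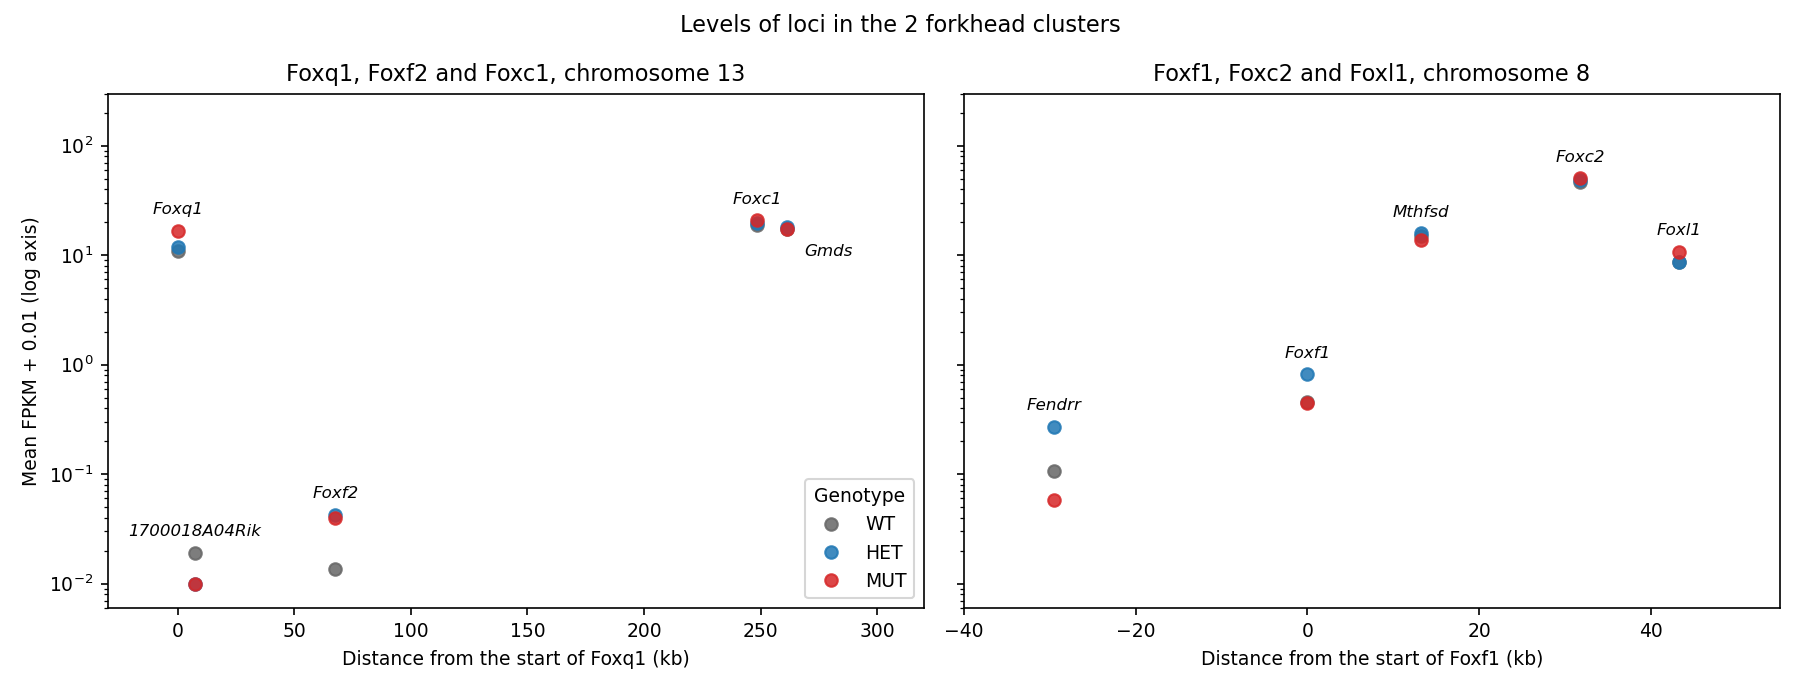
Mean FPKM + 0.01 on a log axis (n=3 per genotype) of loci in the 2 forkhead clusters, by distance from the start of *Foxq1* (left) and *Foxf1* (right) in kb. *Foxf2* lies far below *Foxq1* and *Foxc1*, and *Foxf1* and *Fendrr* are highest in HET.

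Foxf1 is known from smooth muscle and its precursors, and markers of that tissue were read beside it. Of the 10 markers, 7 were tested between HET and WT, and 7 of 7 were higher in HET, with a median log2 fold change of 0.33 beside 0.01 over all genes. Between MUT and HET 6 of 7 were lower, with a median of -0.29, and 0 had an adjusted p under 0.05 in limma. Without HET-2, 5 of 7 were higher in HET than in WT (median 0.19) and 5 of 7 lower in MUT than in HET (median -0.22). *Actg2*, the enteric smooth muscle actin, was at 4.71, 3.16 and 4.79 FPKM in WT, at 9.59, 16.3 and 8.24 in HET and at 4.53, 4.06 and 5.55 in MUT. *Myh11*, the smooth muscle myosin, was at 4.27, 2.54 and 4.59 FPKM in WT, at 5.61, 7.33 and 6.18 in HET and at 4.77, 3.16 and 3.70 in MUT. For both, as for *Foxf1* and *Fendrr*, the HET libraries lay above the other 6, and this held without HET-2. It also held for *Des*, but not for the more abundant *Acta2* (66.6 FPKM in HET-3, 72.1 in WT-3) and *Myl9* (116 in HET-3, 127 in WT-3). Of all genes tested, 2.15% had HET libraries above every WT library and 4.5% had MUT libraries below every HET library. The share with both was not counted. The summed level of the 10 markers was 246, 266 and 291 FPKM in WT, 313, 381 and 280.5 in HET and 235, 282 and 278 in MUT, with *Myl9* the most abundant, so that the sums overlapped. Markers of the gut, where Foxf1 is also known, summed to between 9.06 FPKM (HET-3) and 11.96 FPKM (HET-2). *Vil1*, which the kidney also expresses, was the most abundant of them, and *Cdx2* and *Nkx2-3* did not pass 0.0611 FPKM. The part of smooth muscle content, or of tissue carried along with the kidney, in the levels of *Foxf1* was not tested.

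**Figure D4:**
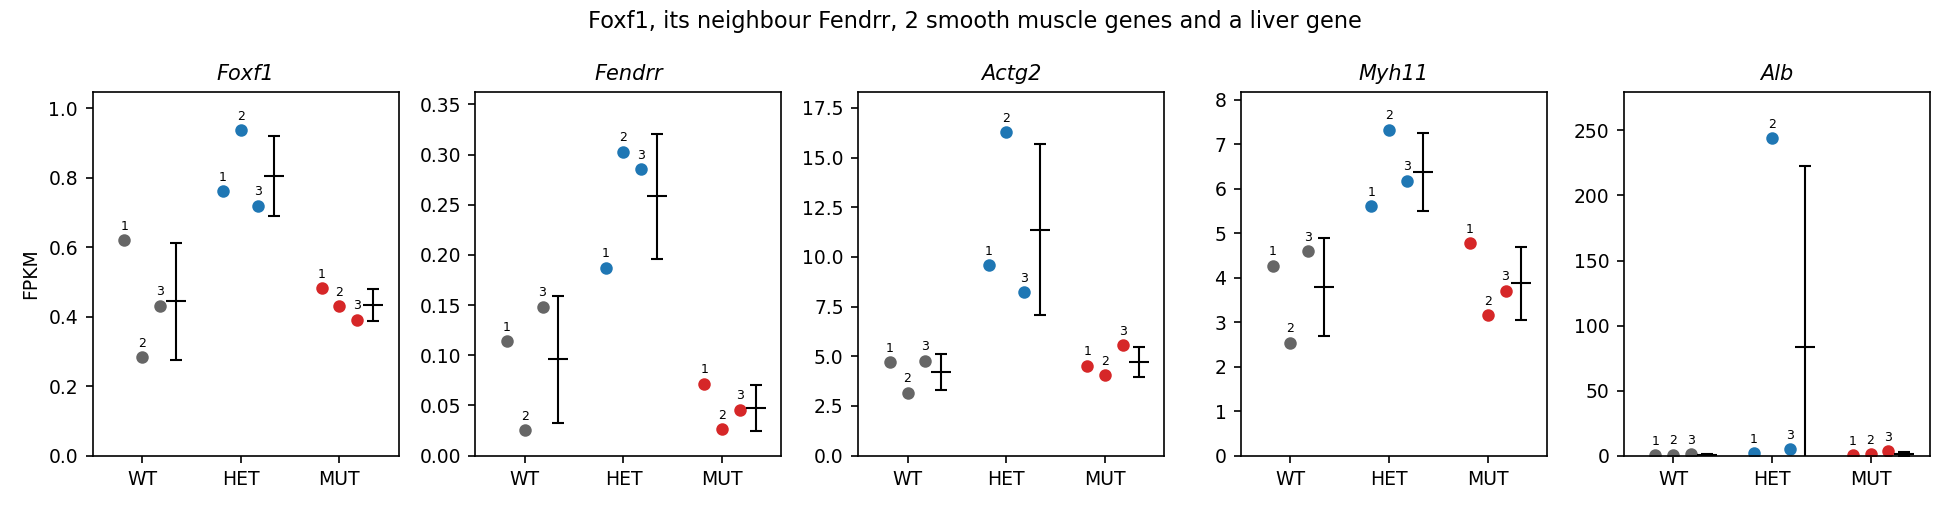
FPKM (vertical axes, each from 0) of *Foxf1*, *Fendrr*, the smooth muscle genes *Actg2* and *Myh11*, and the liver gene *Alb* by genotype; points are numbered libraries and bars are mean±s.d. (n=3), drawn no lower than 0. The HET libraries lie above the others in the first 4 panels, while *Alb* is high in HET-2 alone, at 244 FPKM.

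Genes of the hedgehog response, to which *Foxf1*, *Foxf2* and *Foxl1* answer in other organs, were read in the same way. Of 16 genes listed, 11 were tested, and 8 were higher in MUT and 3 lower, against HET, with a median log2 fold change of 0.15 (9 and 2 without HET-2, median again 0.15). Against WT 7 were higher in MUT and 4 lower, with a median of 0.05. The transcript of the receptor gene *Ptch1* was at 9.72, 11.4 and 15.0 FPKM in HET and at 23.5, 23.6 and 12.7 in MUT, with MUT-3 within the range of HET. In WT it was at 23.4, 12.5 and 13.3 FPKM, so that WT-1 lay with the high MUT libraries. *Gli1* was at 14.2, 17.3 and 14.5 FPKM in HET and at 17.2, 13.7 and 13.02 in MUT. In that comparison no gene of the list passed the adjusted threshold (limma), and *Ptch1* alone passed an unadjusted p of 0.05.

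*Foxi1* (chromosome 11, 34204341 to 34208089, minus strand, 2 exons) varied more within genotypes than between them. It was at 5.88, 3.93 and 3.42 FPKM in WT, at 4.50, 5.23 and 2.66 in HET and at 3.21, 5.30 and 2.70 in MUT. WT-1, MUT-2 and HET-2 were the high libraries, and the groups overlapped throughout. With a minimum of 1 FPKM the log2 fold change of *Foxi1* was -0.12 (s.e. 0.14, adjusted p = 0.935, limma) between MUT and HET. Of 18 genes of intercalated cells, 7 were tested, with 4 higher and 3 lower in MUT against HET (also without HET-2) and 0 past the threshold. Against WT 6 of 7 were lower in MUT (median log2 fold change -0.20) and 6 of 7 lower in HET (median -0.24), 7 of 7 without HET-2, again with 0 past the threshold. *Atp6v1b1*, the proton pump subunit that Foxi1 is known to drive, was at 11.6, 6.52 and 9.47 FPKM in WT, at 6.19, 7.19 and 6.14 in HET and at 6.23, 9.67 and 4.66 in MUT. WT-1 and MUT-2 were its highest libraries, as they were for *Foxi1*. *Atp6v0d2*, another pump subunit, was at 2.95 FPKM in WT-1 and at 1.80 in HET-2. *Car2* and *Slc4a1*, which red blood cells also express, were highest in HET-2 at 43.5 and 9.20 FPKM, the library with the liver markers.

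*Foxj1* was at 2.71, 1.91 and 1.92 FPKM in WT, at 2.20, 2.13 and 1.76 in HET and at 2.021, 2.37 and 2.24 in MUT. The groups overlapped, and with a minimum of 1 FPKM its log2 fold change in MUT against HET was 0.08 (s.e. 0.14, adjusted p = 0.943, limma). Of 28 motile cilia genes in the table, 18 had a mean under 1 FPKM and 7 a mean above that of *Foxj1*. *Dnah5*, *Dnah9* and *Dnah11*, heavy chains of the outer dynein arm, did not pass 0.123 FPKM in any library, and *Mcidas*, which starts the multiciliated programme, did not pass 0.0188. Between MUT and HET 4 genes of the list were tested, with 1 higher, 3 lower and 0 past the threshold. *Tppp3* was the most abundant at 9.26 FPKM.

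*Foxp2* (chromosome 6, 14901349 to 15441977), a relative of *Foxp1* best known from the brain, was at 2.50, 2.05 and 2.70 FPKM in WT, at 1.92, 1.96 and 2.44 in HET and at 2.44, 2.54 and 1.82 in MUT. Its libraries overlapped in each comparison, and the log2 fold change in MUT against HET was 0.07 (s.e. 0.16, adjusted p = 0.956, limma) with a minimum of 1 FPKM. *Foxp1* and *Foxp2* differ from the other members in structure. Their longest annotated transcripts have 44.9% and 42.6% GC and up to 20 and 19 exons, whereas the other 8 genes have 1 to 3 exons and between 52.4% and 62.0% GC.

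The podocyte, vessel and other lists give the setting of *Foxc1*, *Foxc2* and *Foxq1*. Of 11 podocyte genes tested, 9 were higher in MUT than in HET (median log2 fold change 0.14), led by *Synpo* and *Kirrel*, and 9 were lower in HET than in WT (median -0.17). Without HET-2 these counts were again 9 and 9, and the medians 0.29 and -0.22. Both counts share the HET libraries. Against WT, 7 podocyte genes were higher in MUT and 4 lower (median 0.06). Of all genes tested, 45.9% were higher in MUT than in HET, 52.4% in HET than in WT and 48.7% in MUT than in WT. Of 16 endothelial genes, MUT exceeded HET in 9 and fell short in 7, and without HET-2 in 12 and 4. Of 16 tested genes of epithelial-mesenchymal transition and Wnt response, a setting in which Foxq1 is known, 10 exceeded HET in MUT and 6 fell short (median 0.09). Among them the Wnt target *Axin2* was at 7.91, 7.96 and 8.33 FPKM in HET and at 10.7, 8.93 and 10.1 in MUT, with WT between 7.03 and 9.34. *Cdh1*, the epithelial cadherin, was at 39.0, 41.7 and 34.0 FPKM in HET and at 48.5, 36.7 and 40.2 in MUT. Of the genes that fell short, *Vim* was at 432, 487 and 405 FPKM in HET and at 335, 314 and 366 in MUT. Every MUT library of *Vim* lay below every HET library (log2 fold change -0.38), with WT between 315 and 399. In the podocyte, endothelial and transition lists 0 genes passed the adjusted threshold (limma) in any comparison.

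Markers of stroma (9 higher and 6 lower of 15 tested), nephron progenitors (5 and 3 of 8) and the ureteric bud (7 and 4 of 11) split in both directions between MUT and HET. The stroma marker *Col1a1* was at 210, 200 and 118 FPKM in WT, at 153, 143 and 173 in HET and at 240, 214 and 232 in MUT. Its MUT libraries, like those of *Foxq1* and *Tgfb1*, lay above all others. Liver markers were lower in MUT in 7 of 7 (median -1.94), the comparison in which HET-2 takes part. Without HET-2 only 2 of them reached the minimum, 1 higher and 1 lower, as in MUT against WT. Adrenal markers were all below the minimum, with *Mc2r* the most abundant at 2.39 FPKM. Their summed level was 15.2 FPKM in HET-2 and between 2.53 and 4.47 in every other library. Gonad and duct markers gave 1 higher (*Wnt4*) and 1 lower (*Sox9*) of 2 tested. The 1 gut marker tested, *Vil1*, had a log2 fold change of -0.02.

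The genes whose pattern over the 9 libraries was most like that of *Foxq1* were *Gata2*, *Bmf*, *Col9a2*, *Hhex* and *Gpr153*. Likeness was the root mean square difference between log2(FPKM+1) profiles, each centred on its own mean, over 10163 loci. It was 0.10 for *Gata2* and 0.14 for each of the other 4, where the median over loci was 0.33 and the profile of *Foxq1* itself had a root mean square of 0.28. *Gata2*, a transcription factor of blood, vessel and urogenital development, was at 17.1, 12.04 and 12.4 FPKM in WT, at 15.52, 17.1 and 13.5 in HET and at 21.01, 19.4 and 15.9 in MUT. It shared with *Foxq1* a high WT-1 within WT and a low HET-3 within HET, but its MUT-3 library lay below HET-2. *Bmf*, a pro-apoptotic gene, was at 21.05, 19.6 and 17.2 FPKM in WT, at 20.5, 20.7 and 20.7 in HET and at 26.2, 28.6 and 22.1 in MUT. *Bmf* was the only one of the 5 with all 3 MUT libraries above the other 6, and 2 of 3 were above for each of the rest. The profiles were ranked on these libraries, which share their depth and the split by genotype, so the likeness is a description.

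**Figure D5:**
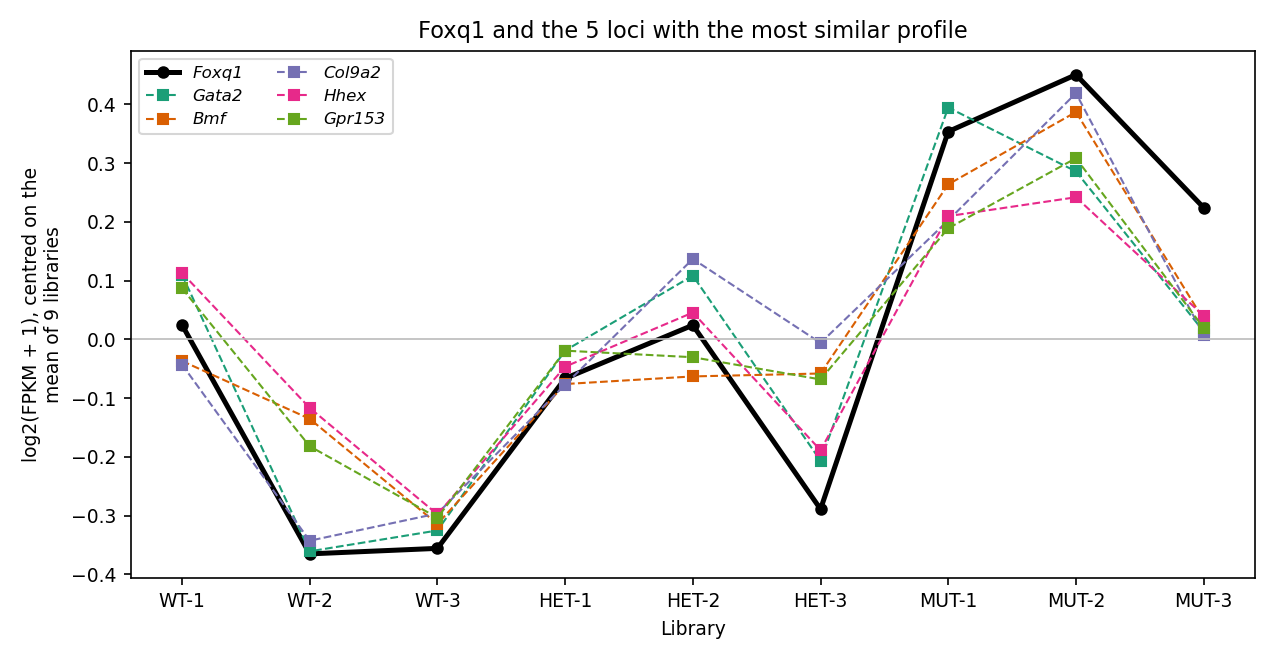
Log2(FPKM+1) centred on the mean of 9 libraries (vertical axis) for *Foxq1* (black) and the 5 loci with the most similar profile, by library. All 6 profiles are lowest in WT-2 or WT-3 and lie above 0 in MUT-1 and MUT-2, and *Foxq1* stands above the rest in MUT-3.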

How the data were processed

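Per the labels and the paper's methods, the authors made TruSeq Stranded mRNA libraries, sequenced them on a NextSeq 550, used STAR as aligner, Cufflinks with cuffmerge for assembly and CuffDiff for the FPKM. The submitters' processing notes name the build mm10, and tool versions are not given in the sources used here. The deposited FPKM were used as they are, with no counts. Table starts were raised by 1 base, and annotation came from GENCODE M21. The tests used limma 3.58.1 under R 4.3.3 (lmFit, eBayes with trend) on log2(FPKM+1) for genes whose mean reached 5 FPKM in a compared group, with only the genotypes compared in each fit, the replicate number as a block, two-sided tests and Benjamini-Hochberg adjustment at 0.05. Lists of genes are described by counts and medians only. The members, lists and comparisons were chosen with earlier results of these data known. Genes were named from a rule that covered the members, other forkhead genes of at least 5 FPKM and neighbours within 500 kb. The rule also covered the most abundant and smallest-p genes of each list and the 5 profiles most like *Foxq1*. Not all genes that it covered are printed. *Foxa1*, *Foxa3*, *Fendrr* and some list members were named after their values were seen. Simulated data with known differences were used to test the fits. In data simulated for MUT against HET, 0 of 50 genes changed 1.2-fold were called, 2 of 50 changed 1.5-fold and 35 of 50 changed 2-fold. Of 9764 unchanged genes 2 were called. The kidneys came from 3 crosses, but the cross behind each library is not stated, so p-values measure the spread between these libraries only.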

Additional observations from a re-analysis of the deposited data

How the results depend on the processing

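With 3 libraries per genotype and an unknown read depth, small differences of single forkhead genes cannot be resolved, and genes under 5 FPKM were fitted only with a lower minimum or none. Between MUT and HET, MUT and WT, and HET and WT, limma called 0 genes under other pseudocounts, FPKM minimums, rescaling, GC correction, a shared fit, no trend and no replicate block. Leaving out each replicate number, with 1 residual degree of freedom, gave 30 to 148, 1 to 168 and 1 to 125 genes. Among them were *Foxo3* and *Foxn3* (MUT against HET without the libraries numbered 3), *Foxd2* (MUT against WT without those numbered 2) and *Foxd1* (HET against WT without those numbered 3). Same-numbered libraries did not deviate together (mean correlation of their deviations -0.13, 0.09 and -0.03), so the numbers are not shown to pair the samples. Without the replicate block 636, 65 and 108 genes had an unadjusted p under 0.05. Over the alternatives the log2 fold change of *Foxq1* in MUT against HET and in MUT against WT ran from 0.40 to 0.52 and from 0.45 to 0.70. Signs turned as follows for the 5 members above the minimum and for the median of the 13 other forkhead genes, and the cause was not tested. That median in HET against WT was -0.081 and became 0.071 without the libraries numbered 1. After GC correction the log2 fold change was -0.0093 for *Foxc1* and -0.059 for *Foxl1* in HET against WT and -0.014 for *Foxc2* in MUT against HET, and without HET-2 it was -0.084 for *Foxl1* in HET against WT. Over the fits without a replicate number it ran in HET against WT from -0.012 to 0.23 for *Foxq1*, -0.18 to 0.13 for *Foxl1* and -0.24 to 0.062 for *Foxp1*, in MUT against HET from -0.036 to 0.13 for *Foxc2*, and in MUT against WT from -0.047 to 0.43 for *Foxl1*.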
